A study of Rattus norvegicus with 17 samples.

Results

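The 6 genes of the classical opioid system were followed through 8 kinds of rat sensory neuron: the receptor genes Oprm1, Oprd1, Oprk1 and Oprl1, and the peptide precursor genes Penk and Pdyn. They are 6 of the 32883 gene rows in the tables, and all 6 had a row. They were picked by name, but with earlier results of these data known, as were the gates used below. The neurons came from dorsal root ganglia, the clusters of cell bodies beside the spinal cord, at L4 and L5 of adult male Sprague-Dawley (SD) rats of 200 g, described as naive. Neurons were picked one by one by mouth pipette. The protocols describe fluorescently labelled neurons 15 min after plating and neurons with neurites 72 h after plating. They give 5 or more rats for each of these times, and the design text speaks of acutely dissociated neurons. The labels do not give the time or the rats of a batch, so these cannot be told apart from batch. Each of the 17 samples is a batch of single neurons, all of 1 group, and batches are the replicates below. A p-value therefore sets a difference between kinds of neuron against how much that difference varies from batch to batch. This variation may be technical and includes which cells were picked. In the fits below its estimate is shared by all gates, so a gate with few batches draws on the spread of the others. The sign-flip tests over batches given below use each gate's own differences.

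One deposited table, batch 21, was identical to that of batch 20 and was left out. The other 16 batches held 1040 cells. Those with 2000 genes or more were used, 967 in all and 32 to 93 per batch. Kept cells had a median of 139374 unique molecular identifiers (UMIs, which tag single mRNA molecules), with a range of 4307 to 1514406. No cell name was shared between these batches and no 2 cells had identical counts. The 73 cells under 2000 genes held at most 2 UMIs of any of the 6 genes. All 5 neuronal markers (Tubb3, Elavl4, Snap25, Prph and Nefh) had a median above 0 in each of the 8 kinds. Of 10 satellite glia and Schwann cell markers, Fabp7, Sox10, Mag and Prx were among those with a median of 0 in each kind, and the summed level of the 10 had medians of 920.4 to 1102 CPM (UMI counts scaled to 1e6 per cell or sum) in 7 kinds and 2367 CPM in the 3 Pvalb+Vsnl1 cells.

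A neuron was placed in a kind, called a gate here, when every gene of the gate had at least 2 UMIs and at least 25 CPM. This gave 480 cells that passed 1 gate only: 216 Clmp, 99 Sst+Nppb, 56 Ntsr1+Chrna3, 46 Gzmbl3+Lpar3, 23 Th, 21 Trpm8, 16 Nmu+Lad1 and 3 Pvalb+Vsnl1 cells. A further 114 cells passed several gates and 373 passed none. UMIs were summed over the cells of a gate in a batch, with at least 3 cells per sum, and each gate was set against the mean of the other gates with batch as a term, by edgeR's quasi-likelihood test over all genes with Benjamini-Hochberg adjustment and a threshold of 0.05. Cells of 1 gate gave 48 sums over 5 gates: Clmp in 15 batches, Sst+Nppb and Ntsr1+Chrna3 in 11 each, Gzmbl3+Lpar3 in 7 and Th in 4. For Trpm8, Nmu+Lad1 and Pvalb+Vsnl1, cells that passed several gates were also placed, in the gate whose genes stood highest. That choice was made after the data were seen; it gave 594 closest-gate cells and 69 sums over 7 gates, with Trpm8 in 10 batches and Nmu+Lad1 in 3, and no sum for the 7 Pvalb+Vsnl1 cells. Of the 56 cells that passed the Trpm8 gate, 28 also passed the Clmp gate.

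Opioid receptors are G protein-coupled receptors that act through inhibitory G proteins. In sensory neurons they are known to close voltage-gated calcium channels, to open potassium channels and to lower cyclic AMP, which reduces transmitter release at the spinal terminal. Oprm1 encodes the mu receptor, the target of morphine, Oprd1 the delta receptor, Oprk1 the kappa receptor and Oprl1 the nociceptin receptor. Penk is the precursor of the enkephalins, which bind mu and delta receptors, and Pdyn that of the dynorphins, which bind the kappa receptor.

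The reference holds upstream sequence for 3 of the 6 genes (RefSeq, build GRCr8, which is not the build of the counts): Oprm1 with 2 entries, Oprd1 and Pdyn. The Pdyn one is shown because Pdyn differed between gates, as described below, and because it holds TGACAAACA, described for the rat gene as a noncanonical AP-1 motif. It covers the 250 bases before the start, chr3:137366504-137366753 on the minus strand, with the motif in capitals:

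Pdyn: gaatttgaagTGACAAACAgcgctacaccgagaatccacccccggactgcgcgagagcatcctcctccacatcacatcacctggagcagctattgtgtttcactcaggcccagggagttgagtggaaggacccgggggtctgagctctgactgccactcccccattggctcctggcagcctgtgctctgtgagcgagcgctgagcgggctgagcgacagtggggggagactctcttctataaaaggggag

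The motif lies at -240 to -232 from the start. On either strand it is found in 0.323% of 33469 such 250-base stretches. TGACGTCA, TGCGTCA and TGACTCA, searched on both strands, were in none of the 4 upstream stretches of these genes, and TGACAAACA was in none but that of Pdyn.

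Among the receptor genes, that of the mu receptor was found in the largest number of cells. Oprm1 had 929 UMIs in 213 of the 967 cells (22.0%, exact 95% interval 19.5 to 24.8%), was found in all 16 batches and was at 25 CPM or more in 28 cells. Its mRNA was in 33.3% of Clmp cells (72 of 216) and 47.8% of Gzmbl3+Lpar3 cells (22 of 46), but in 1 of 23 Th cells (4.35%, 0.11 to 21.9%) and 1 of 16 Nmu+Lad1 cells. All these intervals are exact (Clopper-Pearson) and cover counting error only. The Th and Nmu+Lad1 cells had median depths of 236126 and 423940 UMIs, both above the 197948 UMIs of Clmp cells.

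In Clmp sums, Oprm1 ranged from 1.59 to 12.2 CPM with a median of 5.66 CPM over 15 batches, and no batch was at 0. The Gzmbl3+Lpar3 sums went from 0 to 18.6 CPM with a median of 5.63 CPM over 7 batches. Ntsr1+Chrna3 sums had a median of 3.03 CPM (0 to 7.33, 11 batches) and Sst+Nppb sums one of 2.36 CPM (0 to 6.38, 11 batches). The Th sums were at 0 in batches 25, 26 and 33 and at 0.68 CPM, a single UMI, in batch 34, so that every Clmp batch lay above every Th batch, while the Clmp, Gzmbl3+Lpar3, Ntsr1+Chrna3 and Sst+Nppb ranges overlapped.

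Oprm1 was higher in the Clmp gate than in the mean of the other gates, with a log2 fold change of 1.95 ± 0.55 (SE, edgeR adjusted p = 0.0109). It was one of 2 calls among the 20 combinations of 4 fitted genes and 5 gates. In the Clmp gate 16.6% of 12277 genes were called, 9.29% as higher. Where a gate level of 10 CPM or a minimum of 5 cells per sum left no Th sums in the fit, the value was 0.43 (adjusted p = 0.675) and 0.59 (adjusted p = 0.493). A gate level of 50 CPM, with Th present, also ended it (1.61, adjusted p = 0.0691).

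Pooled over all cells of 1 gate, Clmp cells had 326 Oprm1 UMIs, or 5.97 CPM, and Th cells 1 UMI, or 0.15 CPM. That is a ratio of 41.0 with a counting interval of 7.30 to 1623. The sums of this pair of gates passed edgeR's test (adjusted p = 0.0291, with 3.07% of genes called), as did those of Gzmbl3+Lpar3 against Th (adjusted p = 0.0432, with 4.28% called), where the pooled cells had 154 UMIs against 1, a ratio of 62.1 with an interval of 10.98 to 2468. These were the only 2 of 10 pairs of gates called for Oprm1. In order of mean level the gates ran Gzmbl3+Lpar3 (6.70 ± 6.40 CPM, SD, n = 7), Clmp (6.48 ± 3.62, n = 15), Ntsr1+Chrna3 (3.35 ± 2.59, n = 11), Sst+Nppb (2.32 ± 2.22, n = 11) and Th (0.17 ± 0.34, n = 4), and no neighbours in that order passed edgeR's test (adjusted p of 0.181 to 0.979). Clmp against Sst+Nppb was not called in cells of 1 gate (log2 1.63 ± 0.63, adjusted p = 0.102) but was in closest-gate cells (1.96 ± 0.60, adjusted p = 0.0259, with 9.69% of genes called).

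Among closest-gate cells, Oprm1 was in 12 of 45 Trpm8 cells (26.7%), 23 of 70 Ntsr1+Chrna3 cells (32.9%) and none of 7 Pvalb+Vsnl1 cells, a count of 0 that allows a share of up to 42.9%. Its Trpm8 sums were uneven: batches 24 and 26 had 27.5 and 23.2 CPM, 3 batches had 4.17 to 8.30 CPM and 5 of 10 were at 0. The 3 Nmu+Lad1 sums held no Oprm1 UMI, so folds against the mean of these 7 gates depend on the fit's prior count and are not given for Oprm1. Of the 21 pairs of closest gates 4 were called for Oprm1 by edgeR: Clmp against Sst+Nppb, given above, Clmp against Th (adjusted p = 0.00522, with 4.16% of genes called) and Nmu+Lad1 (adjusted p = 0.0305, with 3.55% called), and Gzmbl3+Lpar3 against Th (adjusted p = 0.0122, with 7.97% called).

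**Figure D1:**
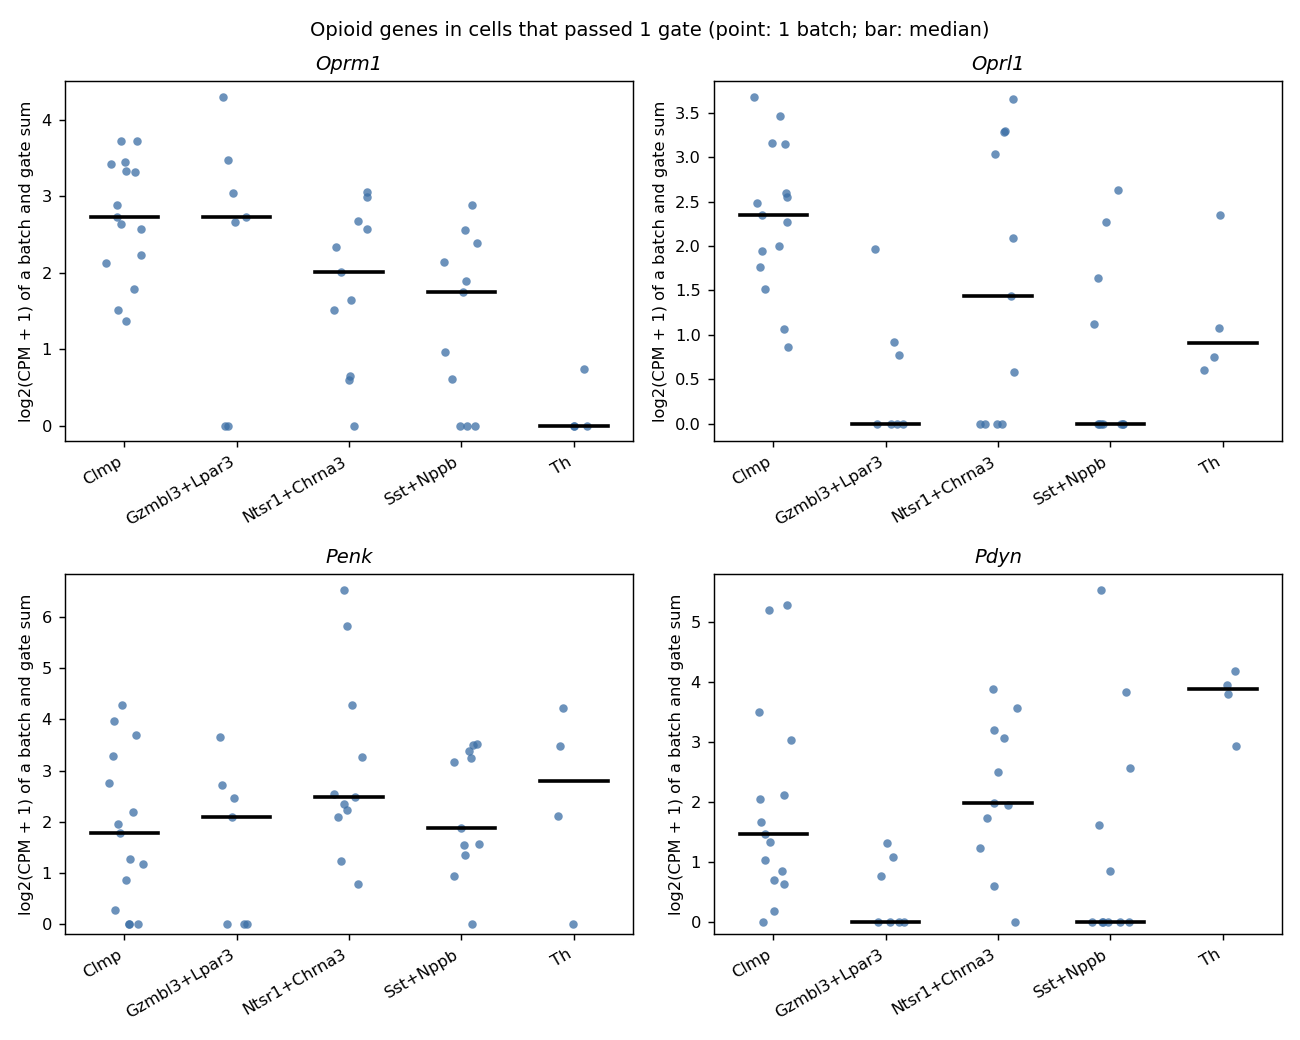
Levels of Oprm1, Oprl1, Penk and Pdyn as log2(CPM + 1) in sums of cells that passed 1 gate; each point is 1 batch and each bar the median. Oprm1 lies above 0 in all 15 Clmp batches and at or near 0 in the 4 Th batches, while Pdyn shows the opposite order of Th and Gzmbl3+Lpar3, and Penk overlaps between all gates.

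Oprl1, the nociceptin receptor gene, was the second receptor with broad counts. It had 741 UMIs in 160 cells (16.5%, 14.3 to 19.0%), in all 16 batches, with 23 cells at 25 CPM or more. It was also higher in the Clmp gate (log2 1.93 ± 0.61, edgeR adjusted p = 0.0251), the other of the 2 calls. Clmp sums ranged from 0.82 to 11.8 CPM with a median of 4.09 CPM and none at 0, against medians of 0 CPM in Sst+Nppb sums (0 to 5.17, 7 of 11 at 0), 0 CPM in Gzmbl3+Lpar3 sums (0 to 2.91, 4 of 7 at 0), 1.70 CPM in Ntsr1+Chrna3 sums (0 to 11.6) and 0.89 CPM in Th sums (0.52 to 4.09). The Clmp range overlapped with each of them. Without batch 28-3 or batch 32 the call was lost (adjusted p = 0.0633 and 0.0542), as it was at a gate level of 50 CPM (1.53, adjusted p = 0.0715) and with 5 cells per sum (1.60, adjusted p = 0.0663). With closest-gate cells the Clmp value was 1.17 (adjusted p = 0.108).

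Of the 10 pairs of gates in cells of 1 gate, Oprl1 passed only for Clmp against Sst+Nppb (log2 2.73 ± 0.86, edgeR adjusted p = 0.0371, with 9.41% of genes called). Its mean levels fell in the order Clmp (4.81 ± 3.25 CPM, SD, n = 15), Ntsr1+Chrna3 (3.81 ± 4.43, n = 11), Th (1.60 ± 1.68, n = 4), Sst+Nppb (1.12 ± 1.83, n = 11) and Gzmbl3+Lpar3 (0.64 ± 1.07, n = 7), again with no neighbours called (adjusted p of 0.805 to 0.989). The 2 receptors thus stood in different orders: Gzmbl3+Lpar3 had the highest mean for Oprm1 and the lowest for Oprl1, though the difference between the receptors was not tested.

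Oprl1 was also found in the Trpm8 and Pvalb+Vsnl1 gates, which had no place in that fit. In closest-gate Trpm8 sums its levels were 6.25, 0, 2.07, 9.96, 14.8, 43.9, 4.93, 0, 13.7 and 9.36 CPM in batches 20, 24, 25, 26, 27, 28-1, 30, 31, 34 and 35. Batch 28-1 stands above the others and 2 batches are at 0. The Trpm8 gate was higher than the mean of the other 6 (log2 2.21 ± 0.61, edgeR adjusted p = 0.0201), where 5.82% of 12695 genes were called and 3.36% were higher. Cells that passed the Trpm8 gate alone had Oprl1 in 4 of 21 (19.0%), at a pooled 5.81 CPM and none at 25 CPM or more. Those that also passed another gate had it in 15 of 35 (42.9%), at 10.1 CPM, and were deeper (a median of 211790 UMIs, against 87978 UMIs in cells of that gate alone). The call was lost without batch 28-1 (adjusted p = 0.0515), without batch 20 (adjusted p = 0.0717), at a gate level of 10 CPM (1.89, adjusted p = 0.0563) and with 5 cells per sum (1.76). Of the 21 pairs of closest gates 5 were called for Oprl1: Trpm8 against Sst+Nppb (3.36 ± 0.77, adjusted p = 0.00242, with 9.26% of genes called) and Gzmbl3+Lpar3 (3.27 ± 0.88, adjusted p = 0.00625, with 17.1% called), Clmp against Sst+Nppb (2.47 ± 0.69, adjusted p = 0.0122) and Gzmbl3+Lpar3 (2.38 ± 0.78, adjusted p = 0.0205, with 22.1% called), and Sst+Nppb against Ntsr1+Chrna3 (-2.34 ± 0.74, adjusted p = 0.0408, with 6.66% called). In the Pvalb+Vsnl1 gate, which holds markers of large neurofilament-rich neurons, 6 of 7 cells from 5 batches had Oprl1 (85.7%, 42.1 to 99.6%) and 4 of 7 were at 25 CPM or more. They had a pooled level of 38.5 CPM, or 26.6 CPM without the top cell, against 3.52 CPM over all kept cells. With 3 cells that passed no other gate, this gate had no sum and no test.

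Delta and kappa receptor mRNA was near the limit of these libraries. Oprd1 had 43 UMIs in 17 cells (1.76%, 1.03 to 2.80%) of 10 batches, and 7 of those were among the 216 Clmp cells, which held 25 of the UMIs. It was in 3 of 99 Sst+Nppb, 2 of 56 Ntsr1+Chrna3 and 2 of 46 Gzmbl3+Lpar3 cells, and in none of 23 Th cells, which allows up to 13.0%, of 21 Trpm8 cells (up to 14.3%) or of 16 Nmu+Lad1 cells (up to 18.8%). Oprk1 had 31 UMIs in 8 cells (0.83%, 0.36 to 1.62%) of 5 batches, and 19 of these UMIs were in a single cell of batch 26 that passed no gate. Neither gene passed the filter on low counts, so the edgeR fit above holds no value for them. With no filter, edgeR called neither gene in any gate against the mean of the others, and 1 such contrast had an unadjusted p under 0.05 (Oprd1 in closest-gate Clmp sums, p = 0.0499). Two-sided sign-flip permutation tests over batches gave no unadjusted p under 0.05 either; in Clmp sums of cells of 1 gate, over 14 batches, Oprd1 was higher in 3 and lower in 4 (p = 0.219) and Oprk1 higher in 3 and lower in none (p = 0.25). A share this low does not show that the receptors are missing.

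Penk was found in 216 cells (22.3%, 19.8 to 25.1%) with 2464 UMIs, and its mRNA was concentrated: the 10 cells with most UMIs held 52.2% of it, against 21.3% for Oprm1. Batches ranged from 0.88 to 47.0 CPM over all their kept cells. The gate richest in it was that of Trpm8, the menthol- and cold-activated channel that marks cold-sensing neurons. Among closest-gate cells, 25 of 45 Trpm8 cells had a Penk UMI (55.6%, 40.0 to 70.4%) and 16 were at 25 CPM or more (35.6%, 21.9 to 51.2%), against 10 of 250 Clmp cells at that level (4.00%, 1.93 to 7.23%) and 6 of 106 Sst+Nppb cells (5.66%, 2.11 to 11.9%). Those 16 cells came from 8 batches.

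By batch, Penk in closest-gate Trpm8 sums was 78.2, 20.6, 43.6, 88.0, 0, 0, 70.5, 173, 245 and 22.6 CPM in batches 20, 24, 25, 26, 27, 28-1, 30, 31, 34 and 35. All but 2 of these 10 batches exceed 20 CPM, and those 2 have none. In the Clmp gate no batch passed 17.8 CPM (median 2.68, n = 15), in the Gzmbl3+Lpar3 gate none passed 9.20 CPM (median 2.05, n = 10), and in the Th gate none passed 17.5 CPM (median 9.55, n = 6). The 8 Trpm8 batches with Penk lay above every Clmp, Gzmbl3+Lpar3 and Th batch, but overlapped with Sst+Nppb sums (highest 26.6 CPM), Ntsr1+Chrna3 sums and 1 of the 3 Nmu+Lad1 sums (44.4 CPM).

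Penk was higher in the Trpm8 gate than in the mean of the other 6 gates by a log2 fold change of 3.16 ± 0.56 (edgeR adjusted p = 0.000119), and the call was kept in each alternative fit run and without each batch in turn (2.84 to 3.44). In pairs of gates it passed against Clmp (3.74 ± 0.72, adjusted p = 0.000895), Sst+Nppb (3.55 ± 0.76, adjusted p = 0.00108) and Gzmbl3+Lpar3 (4.09 ± 0.86, adjusted p = 0.000429), where 1.98%, 9.26% and 17.1% of genes were called. It did not pass against Ntsr1+Chrna3, its neighbour in the order of levels (2.03 ± 0.70, adjusted p = 0.0617), Th (3.21 ± 1.07, adjusted p = 0.137) or Nmu+Lad1 (2.32 ± 1.28, adjusted p = 0.351). A two-sided sign-flip permutation test over the same 10 batches, higher in 8 of them, gave p = 0.0215, or 0.0859 after adjustment over the fitted genes and gates. Trpm8 against Clmp does not set apart cells with and without Clmp mRNA. Closest-gate Trpm8 cells had a median Clmp level of 27.8 CPM, against 0 CPM in cells that passed the Trpm8 gate alone. The cells that passed the Trpm8 gate alone, which were too few per batch for the fit, had Penk at 25 CPM or more in 6 of 21 (28.6%, 11.3 to 52.2%), though 1 cell of batch 30 held 75.6% of their Penk UMIs (40.1 CPM with it, 12.6 CPM without it). Those that passed it with another gate were at that level in 13 of 35 (37.1%). Among closest-gate cells the top one, in batch 34, held 28.2% of the gate's Penk UMIs, and the pooled level was 65.9 CPM with it and 48.8 CPM without it.

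Ntsr1+Chrna3 cells held Penk too, with a UMI in 29 of 70 closest-gate cells (41.4%, 29.8 to 53.8%) and 10 at 25 CPM or more (14.3%, 7.07 to 24.7%), but most of the UMIs were in few cells. Their closest-gate sums ran from 1.28 to 143 CPM with a median of 4.92 CPM, with 143, 71.0, 54.7 and 22.1 CPM in batches 34, 30, 24 and 25 and 8.58 CPM or less in the other 8. One cell of batch 34 held 50.9% of the gate's Penk UMIs, without which the pooled level falls to 14.3 CPM, against 28.4 CPM with it. In cells of 1 gate the Ntsr1+Chrna3 value was log2 1.24 ± 0.77 over the other 4 gates (adjusted p = 0.549). No gate was called for Penk there by edgeR, and none had an unadjusted p under 0.05 (lowest 0.116).

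**Figure D2:**
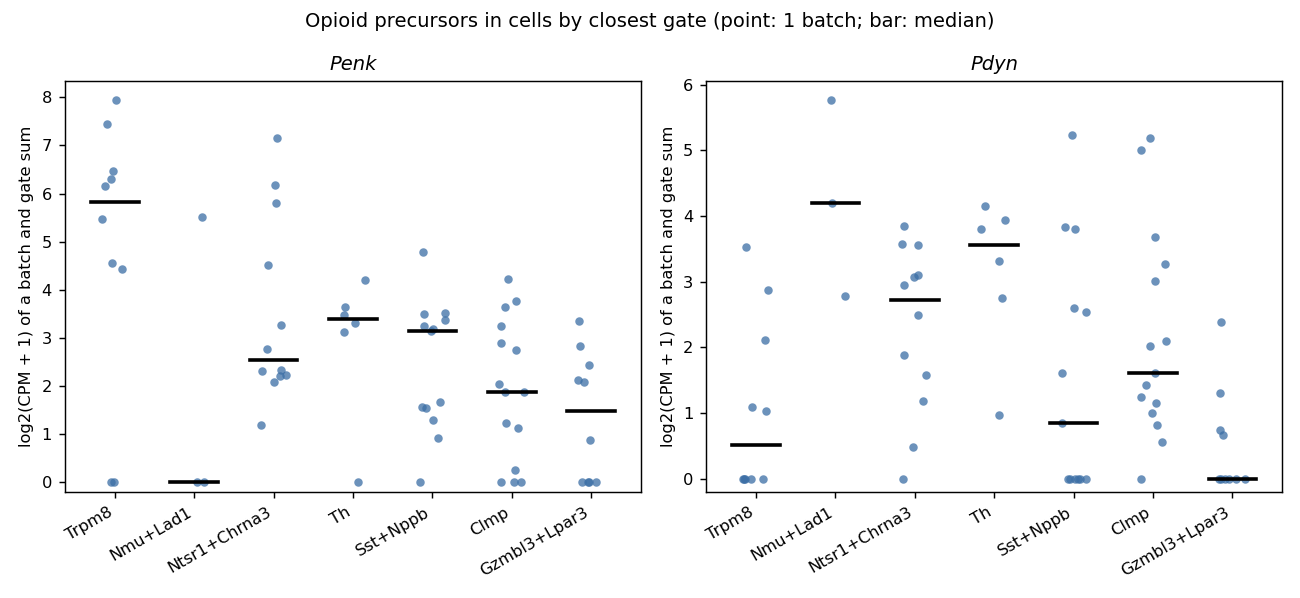
Penk and Pdyn as log2(CPM + 1) in sums of closest-gate cells; each point is 1 batch and each bar the median. By median, Penk stands highest in Trpm8 sums, with 2 of 10 batches at 0, and Pdyn in the 3 Nmu+Lad1 sums. Pdyn is at or near 0 in most Gzmbl3+Lpar3 batches.

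Pdyn had a different pattern. It had 1980 UMIs in 209 cells (21.6%, 19.1 to 24.3%), of which 41.6% were in 10 cells. Of the 16 cells that passed the gate of Nmu, a neuropeptide gene, and Lad1 alone, 14 had a Pdyn UMI (87.5%, 61.7 to 98.4%) and 11 were at 25 CPM or more (68.8%, 41.3 to 89.0%), with the 16 cells spread over 11 batches. Next came Th cells with 13 of 23 (56.5%, 34.5 to 76.8%) and 4 at 25 CPM or more. Among 46 Gzmbl3+Lpar3 cells, 7 had a UMI (15.2%) and none reached 25 CPM.

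The Nmu+Lad1 cells were spread thinly, so only 3 batches gave a closest-gate sum, at 17.5, 53.5 and 5.89 CPM in batches 25, 26 and 29. In those same batches the Gzmbl3+Lpar3 sums held no Pdyn UMI and the Clmp sums had 0.48, 1.38 and 1.68 CPM, all below the Nmu+Lad1 sum of their batch. In batch 29, however, the Th sum (8.91 CPM) and the Ntsr1+Chrna3 sum (7.40 CPM) lay above the Nmu+Lad1 sum. The Nmu+Lad1 gate was higher than the mean of the other 6 by log2 3.93 ± 0.92 (edgeR adjusted p = 0.0108), where 2.11% of genes were called and 1.39% were higher. In pairs it passed against Trpm8, Sst+Nppb and Gzmbl3+Lpar3 (adjusted p = 0.00932, 0.0207 and 0.000934, with 2.68%, 3.39% and 3.59% of genes called), and not against Clmp (adjusted p = 0.0731), Ntsr1+Chrna3 (0.179) or Th (0.538). Without the batch term the value was 2.57 (adjusted p = 0.0921), and leaving out batch 25, 26 or 29 leaves too few sums for a fit. Over all closest-gate cells of this gate, the top cell held 13.3% of the 264 UMIs. The pooled level was 33.5 CPM with it and 31.0 CPM without it. That cell is of batch 30 and lies outside the 3 sums tested. Those sums held 60 Pdyn UMIs of 10 cells, 44 of them in batch 26.

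Th sums had Pdyn in each of the 4 batches in cells of 1 gate, at 6.61, 14.5, 17.1 and 13.0 CPM in batches 25, 26, 33 and 34. Gzmbl3+Lpar3 sums stayed between 0 and 1.48 CPM over 7 batches, below every Th sum. The 2 gates were nonetheless not told apart in this fit (log2 -4.79 ± 1.53 for Gzmbl3+Lpar3 against Th, adjusted p = 0.0659), and neither was called against the mean of the others (Gzmbl3+Lpar3 -3.18 ± 1.18, adjusted p = 0.0695, with 13.1% of genes called there and 5.91% lower; Th 2.82 ± 1.09, adjusted p = 0.291, with 0.244% called). With closest-gate cells, 10 Gzmbl3+Lpar3 batches lay between 0 and 4.23 CPM, and Pdyn was lower in them than in the mean of the other 6 gates (log2 -3.53 ± 0.89, adjusted p = 0.00314, with 16.7% of genes called and 6.88% lower) and than in Th sums (-4.70 ± 1.12, adjusted p = 0.00451, with 7.97% called). The call against the mean was lost at a gate level of 50 CPM (-2.17, adjusted p = 0.205) and with 5 cells per sum (-2.27, adjusted p = 0.346).

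In the Clmp and Sst+Nppb gates, Pdyn rested on few cells. The Clmp sums of cells of 1 gate had a median of 1.76 CPM over 15 batches, with batches 30 and 34 at 37.7 and 35.7 CPM, and 1 cell of batch 30 held 214 UMIs. Likewise a cell of batch 35 held 78 of the 133 Pdyn UMIs of the Sst+Nppb gate, whose median was 0 CPM (0 to 44.9, 11 batches). Cells that passed no gate held 34.8% of all Pdyn UMIs and 31 of the 65 cells at 25 CPM or more. Of those 31, 7 (22.6%) reached the gate level for Nmu alone and 6 (19.4%) for Lad1 alone, against 6 (1.75%) and 5 (1.46%) of the other 342 ungated cells. The 31 cells were deeper, with a median of 221190 UMIs against 47690 UMIs.

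**Figure D3:**
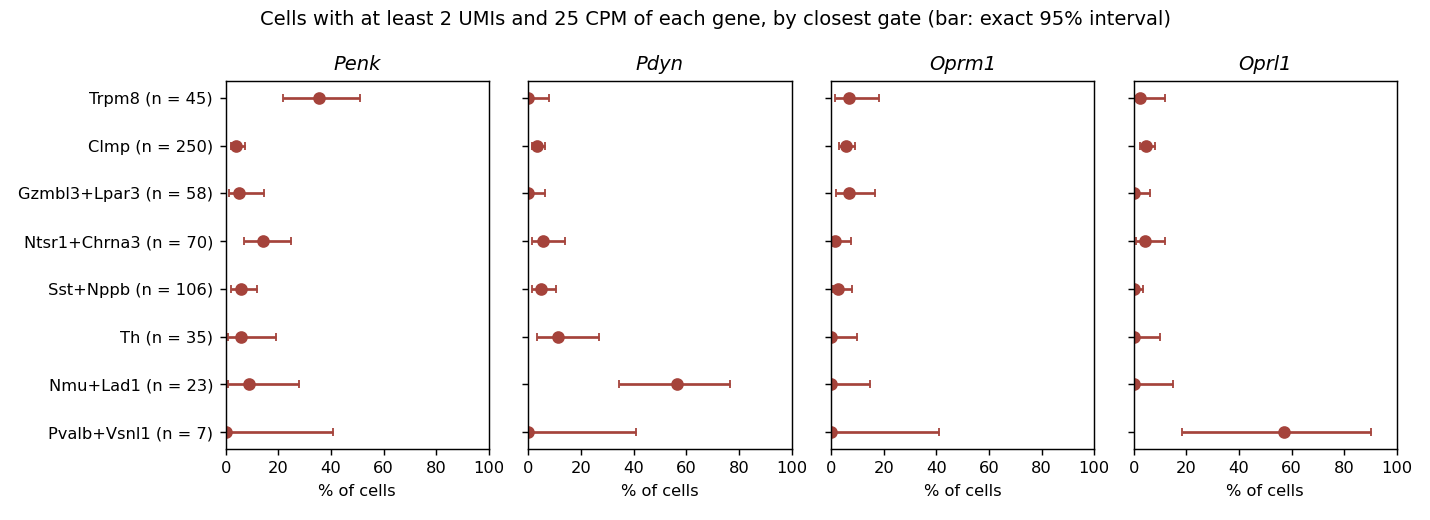
Percent of closest-gate cells with at least 2 UMIs and 25 CPM of Penk, Pdyn, Oprm1 and Oprl1, by gate; points are shares and bars exact 95% intervals for counting error. Penk is highest in Trpm8 cells (35.6%), Pdyn in Nmu+Lad1 cells (56.5%) and Oprl1 in the 7 Pvalb+Vsnl1 cells (57.1%), while the highest share for Oprm1 is 6.90%, in Gzmbl3+Lpar3 cells.

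**Figure D4:**
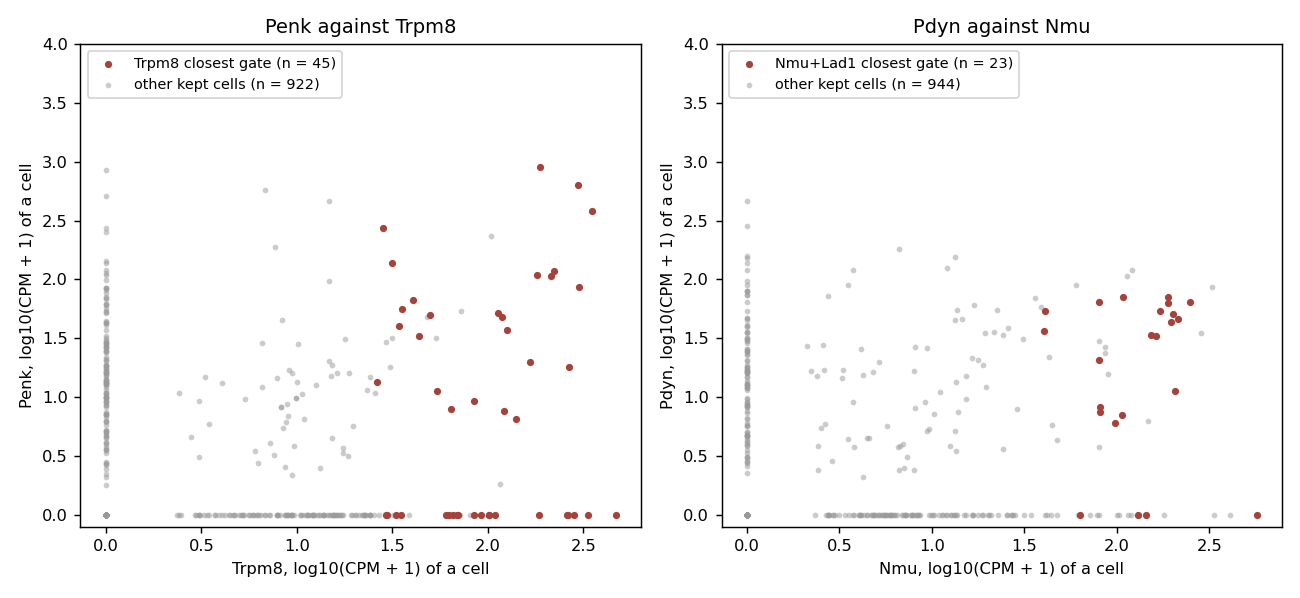
Each point is 1 kept cell, with its Penk level against its Trpm8 level (left) and its Pdyn level against its Nmu level (right), all as log10(CPM + 1); red points are cells of the named closest gate. Penk reaches 902.8 CPM in a Trpm8 cell, but high Penk and high Pdyn cells are also found outside the 2 gates.

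Free RNA or spread between wells can give UMIs in cells that do not make an mRNA. Sst, the somatostatin gene, served as the scale: it had a UMI in 65.7% to 88.6% of closest-gate cells of the other gates, at a median of 6.95 to 31.6 CPM, against 729.9 CPM in Sst+Nppb cells. If the 6 genes spread in proportion to their own totals as Sst did, Oprm1 would be at 0.26 CPM in Th cells and 0.28 CPM in Nmu+Lad1 cells, where 0.21 and 0.25 CPM were measured, so these levels were not above it. The scale sets a median over cells beside a pooled level and depends on its gene: with Nppb, the other gene of that gate, it was 0.15 CPM in Th cells, below the level measured, and 0.51 CPM in Nmu+Lad1 cells. The outcome also depends on the cells taken. In Nmu+Lad1 cells of 1 gate Oprm1 was at 0.33 CPM, above its Sst scale of 0.24 CPM. In Th cells of 1 gate it was at 0.15 CPM, below that of 0.34 CPM. Among closest-gate cells, Pdyn in Gzmbl3+Lpar3 cells, at 0.68 CPM, was below both scales (0.80 CPM by Sst and 1.30 CPM by Nppb). Penk in Trpm8 cells (65.9 CPM against 0.90) and Pdyn in Nmu+Lad1 cells (33.5 CPM against 0.61) are far above the Sst scale, and Oprm1 in Clmp cells (6.93 CPM against 0.37) also exceeds it. The part of such spread in any of these levels was not tested.

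Depth set the shares as well. With every cell thinned to 30000 UMIs and shallower cells left out, Oprm1 was detected in 14.6% of 198 Clmp cells, 21.7% of 46 Gzmbl3+Lpar3 cells and none of 19 Th cells, and Penk in 30.8% of 39 closest-gate Trpm8 cells against 8.44% of 225 Clmp cells. Pdyn was in 43.8% of 16 Nmu+Lad1 cells and 2.17% of 46 Gzmbl3+Lpar3 cells. Each of these shares was below its unthinned value, and for each gene the gates named here stood in the same order. Other gates did not all keep their place. Oprm1 was in 23.8% of Trpm8 cells of 1 gate unthinned, below Clmp cells. Thinned, it was in 17.6% of 17 such cells, above Clmp cells.

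Single cells often held more than 1 of these mRNAs. Of 213 cells with Oprm1, 55 also had Oprl1 (25.8%, against 13.9% of cells without Oprm1), 68 had Penk (31.9% against 19.6%) and 48 had Pdyn (22.5% against 21.4%). Penk and Pdyn were together in 69 cells, or 31.9% of those with Penk and 18.6% of those without. In the 45 closest-gate Trpm8 cells, Oprm1 was in 6 of the 25 with Penk, and 9 of those 25 had Oprl1. Of the 19 closest-gate Nmu+Lad1 cells with Pdyn, 4 had Penk. Deeper cells hold more of every mRNA, so these shares describe the cells and were not tested.

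The genes whose levels ran most like each member over the 48 sums were found by Pearson's r of batch-centred log2 CPM among 7942 genes, given as a description without a p because sums of a batch share a library preparation. For Oprm1 these were AABR07051450.1, Sdr39u1, Klhdc2, Vwa1 and Zmynd8 (r of 0.60 to 0.62), all highest in the Clmp gate. Oprl1 ran with Ndrg4 (0.71), Ppp2r2b, Phactr2 and Tecr (0.65 to 0.67), also highest in the Clmp gate. Pdyn ran with Mogat2, Steap2, Nradd and Zswim7 (0.55 to 0.58), of which 3 peaked in the Th gate and Nradd in the Ntsr1+Chrna3 gate. Penk had Lgi2 (0.60), Rdx, Ftsj3, Psmd3 and Lmf1 (0.52 to 0.58). With the 69 closest-gate sums, the first for Penk were Gkap1 (0.57) and the potassium channel gene Kcnh8 (0.53), both highest in the Trpm8 gate, and the transcription factor gene Foxp2 came among the first 5 for Oprl1 (0.60), highest in the same gate.

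Around the receptors, 71 genes of the opioid system were listed, from peptide processing to downstream effectors. In cells of 1 gate 56 of them entered the fit, and 17 were called in the Clmp gate (10 higher, 7 lower), 14 in the Gzmbl3+Lpar3 gate (7 and 7), 12 in the Sst+Nppb gate (7 and 5), 3 in the Ntsr1+Chrna3 gate (1 and 2) and none in the Th gate by edgeR. There 12 had an unadjusted p under 0.05, and 4 were called with no filter, 3 with DESeq2 and 1 with no batch term. Over all genes the shares called were 16.6%, 13.1%, 5.15%, 1.38% and 0.244%. With each batch left out in turn, 13, 5, 6 and 0 of the 17, 14, 12 and 3 calls were kept in every fit, and 11, 1, 4 and 0 in every alternative setting in which the gene was tested. The 1 Gzmbl3+Lpar3 call kept in every setting was that of Adcy2. The settings in which a call was lost are not all named below.

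Of 7 peptide processing genes tested, 4 were higher and 2 lower in the Clmp gate, with a median log2 fold change of 0.34 against 0.05 over all genes. Pam, the peptide-amidating enzyme, was at 366 CPM in Clmp sums against 206 CPM in the other gates (0.77 ± 0.10, edgeR adjusted p = 6.7e-07), and Pcsk1, a prohormone convertase that cuts precursors such as those of Penk, at 202 against 153 CPM (0.46 ± 0.13, adjusted p = 0.00852). Both calls were kept without each batch and in every alternative setting. The 2 lower ones, Cpd, a carboxypeptidase, and Ctsl, a lysosomal protease, changed by -0.41 and -0.32 and lost their call without any 1 of 8 batches (20, 22, 25, 26, 29, 31, 32, 35) and of 4 batches (25, 27, 33, 35). In Gzmbl3+Lpar3 sums Ctsl was higher by 0.55 and Scg5, the chaperone of the convertase Pcsk2, lower by 0.58 ± 0.13, both lost at a gate level of 10 CPM and with 5 cells per sum, and Ctsl also at 50 CPM. Of 5 genes of peptide breakdown tested, Ece2, an endothelin-converting metallopeptidase, was called in 2 gates in opposite directions, at 42.1 against 27.3 CPM in Clmp sums (log2 0.66) and at 14.7 against 34.2 CPM in Gzmbl3+Lpar3 sums (-1.12), the second lost at gate levels of 10 and 50 CPM and with 5 cells per sum.

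Rgs4, a brake that speeds the shut-off of inhibitory G proteins, differed between most gates. It was at 54.6 CPM in Clmp sums against 326 CPM in the other gates (log2 -2.49 ± 0.28, edgeR adjusted p = 1.3e-08), a call kept in all alternative fits and without each batch. It was lower in Sst+Nppb sums too (126 against 308 CPM, -1.04), a call lost without any 1 of batches 25, 26, 28-1, 31, 34 and 35 and of the opposite sign at a gate level of 10 CPM. It was higher in Gzmbl3+Lpar3 sums (427 against 233 CPM, 1.27), a call lost without batch 26, at a gate level of 50 CPM and with 5 cells per sum. Rgs4 was also higher in Ntsr1+Chrna3 sums (397 against 240.3 CPM, 1.01). That call was lost without any 1 of batches 20, 25, 26, 28-3, 31, 33, 34 and 35, and in 5 alternative settings. Among the other brakes of the 10 tested were Rgs10, lower in the Clmp gate (-0.94) and higher in the Gzmbl3+Lpar3 gate (0.60, lost without batch 26), Rgs17, higher in the Clmp gate (0.76), Rgs7, lower in the Sst+Nppb gate (-1.04, lost with thinned cells), and Rgs2, higher there (1.27, lost at gate levels of 10 and 50 CPM, with 5 cells per sum and with thinned cells). Among 8 inhibitory G protein genes, Gnb1, a beta subunit, was lower in Clmp sums (89.8 against 137 CPM, -0.46, lost at 50 CPM and with thinned cells) and higher in Gzmbl3+Lpar3 sums (217 against 105 CPM, 0.97, lost at 10 CPM and with 5 cells per sum), where Gnao1, the alpha o subunit, was lower (-0.61, lost without batch 28-3). Of 7 kinase and arrestin genes Grk6, a receptor kinase, was called, by 0.46 in the Sst+Nppb gate and 0.47 in the Gzmbl3+Lpar3 gate, a call lost without any 1 of 4 batches (20, 25, 27, 29) in the first gate and of 13 in the second, where it was kept without batches 22, 26 and 27.

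Downstream, several adenylyl cyclase genes, whose enzymes make cyclic AMP, differed between gates. Adcy2 was at 74.6 CPM in Sst+Nppb sums against 21.1 CPM in the other gates (log2 2.43 ± 0.28) and Adcy3 at 66.0 against 17.3 CPM (1.94 ± 0.30), both kept without each batch, while Adcy5 was lower there (-1.44, lost without batch 26 or 34). In Clmp sums Adcy8 was at 16.3 against 5.39 CPM (2.49 ± 0.45), and Cacna1e, a voltage-gated calcium channel subunit, at 5.98 against 0.45 CPM (4.80 ± 0.65), both also kept without each batch. Adcy2, named here after its values were seen, was higher in the Clmp gate as well (1.93 ± 0.26). Adcy2 and Adcy3 were lower in Gzmbl3+Lpar3 sums (-1.80 and -1.26), and Adcy2 in Ntsr1+Chrna3 sums (-1.41). The Adcy2 calls were lost without batch 26, and in Ntsr1+Chrna3 sums also without batch 25, and the Adcy3 call without any 1 of batches 20, 22, 26, 27, 28-1, 28-3, 31, 32, 34 and 35.

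The receptor partners included Rtp4, which in mouse neurons is known as a chaperone that brings mu-delta receptor pairs to the surface. It was at 20.3 CPM in Sst+Nppb sums against 2.83 CPM in the other gates (log2 5.25 ± 0.64, edgeR adjusted p = 4.4e-07), and was lower in Clmp sums (1.01 against 7.64 CPM, -2.45 ± 0.71) and in Gzmbl3+Lpar3 sums (0.47 against 7.78 CPM, -3.84 ± 1.14). These folds set a gate against the mean of the other gates' log2 levels. Gates near 0 can therefore push a fold beyond the ratio of the CPM means. The Sst+Nppb call was kept without each batch, whereas that of Clmp was lost without batch 32 or 34 and that of Gzmbl3+Lpar3 without batch 20 or 22. Wls, a Wnt-sorting protein reported to bind the mu receptor, was higher in Clmp sums (81.0 against 33.8 CPM, 1.38 ± 0.18), lower in Sst+Nppb sums (16.7 against 49.9 CPM, -1.49 ± 0.23) and in Ntsr1+Chrna3 sums (-0.90), and higher in Gzmbl3+Lpar3 sums (0.81). The Ntsr1+Chrna3 call was lost without any 1 of batches 20, 24, 25, 26, 28-3, 31 and 34, and the Gzmbl3+Lpar3 call without any 1 of batches 20, 22, 24, 25, 26 and 32. Ackr3, an atypical receptor that takes up opioid peptides, was called in the Gzmbl3+Lpar3 gate (3.83 ± 1.06) on means of 3.48 against 2.01 CPM and not without batch 28-3 or 31.

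In the Trpm8 gate of closest-gate cells 3 of 58 opioid-system genes were called, where the share called over all genes was 5.82%. Gng3, a gamma subunit, was higher (0.38), and Grk6 (-0.67) and Adcy6 (-2.01, 1.31 against 8.76 CPM) were lower. The Nmu+Lad1 gate, with 3 batches, had 4 called, where the share called over all genes was 2.11%. Kcnj6, a G protein-gated potassium channel subunit, at 6.13 against 0.44 CPM (5.26 ± 1.36), and Wls (1.41) were higher. Rgs3 (-1.30) and Rgs4 (-2.32) were lower. Whether the calls in these 2 gates held in other fits is not given here.

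**Figure D5:**
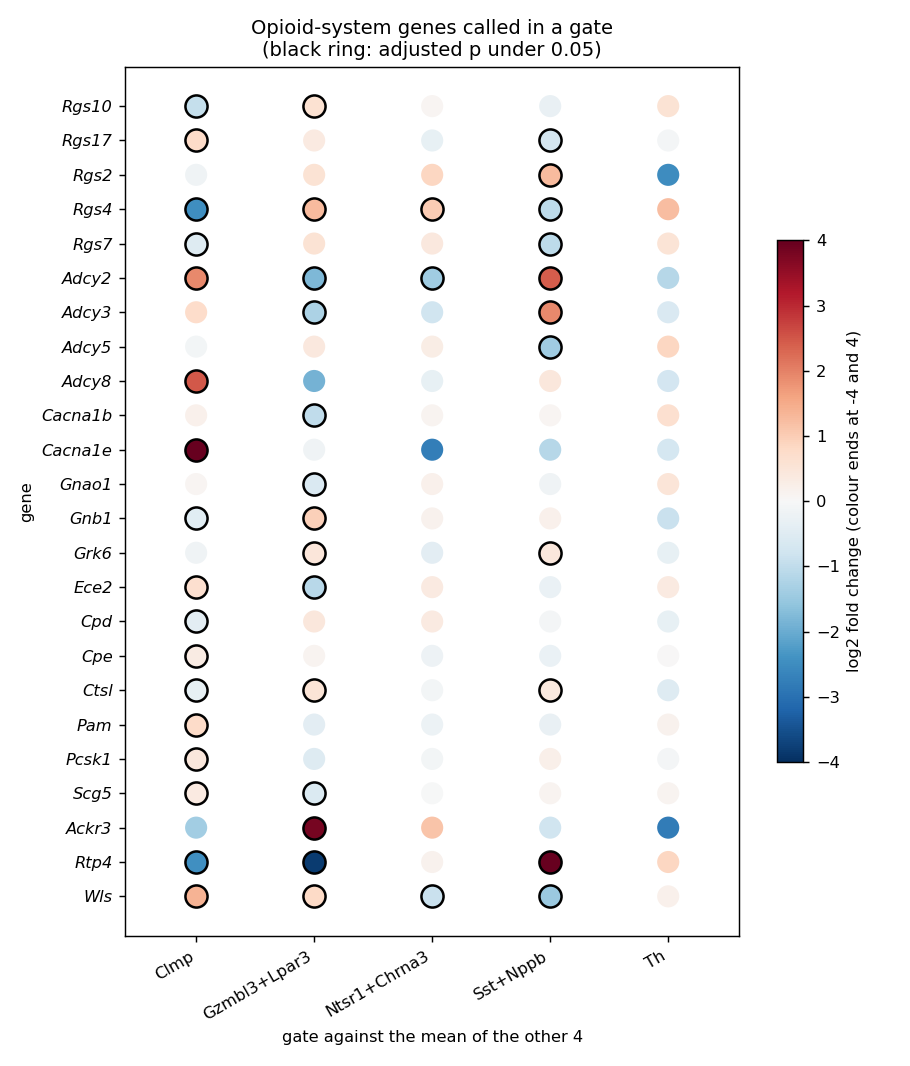
Log2 fold change of opioid-system genes in each gate against the mean of the other 4, in cells of 1 gate, for the reported genes called in at least 1 gate; black rings mark an adjusted p under 0.05. Rtp4, Adcy2 and Adcy3 stand high in the Sst+Nppb gate, Cacna1e, Adcy8 and Wls in the Clmp gate, and no gene is ringed in the Th gate.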

How the data were processed

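Single rat dorsal root ganglion neurons were sequenced with a modified Smart-seq2 protocol that captures 3′ ends and counts UMIs, per the labels' protocols. The authors deposited raw UMI count tables per batch; the submitters' processing notes name UMI-tools, STAR, featureCounts, Subread, SAMtools and Rnor_6.0, with settings not given in the sources used here. Whether counting used strand is not given, so reads of overlapping genes may be shared. Cells with at least 2000 genes were gated and summed per batch and gate (at least 3 cells, gates with sums in at least 3 batches). The fit used R 4.3.3, edgeR 4.0.16 (filterByExpr with minimum count 10, TMM, gate and batch terms, glmQLFit, glmQLFTest) and, as an alternative, DESeq2 1.42.0; it was tested on simulated data. Gate genes were left out of the counts of calls. A closest gate is the passed gate whose weakest gene is highest relative to its 99th percentile over cells. Levels are CPM of the sums with TMM factors. Per-batch sign-flip tests used up to 100000 resamples. Cells were picked singly, and doublets were not called. Whether any of the 114 cells that passed several gates held RNA of another cell was not tested. The 40 cells labelled for batch 21 were not analysed here. Named from the opioid-system lists were up to 2 called genes per list, gate and direction with the largest fold change, and the 5 genes most like each member among those with at least 20 CPM in their highest gate. The members, gates and lists were chosen with earlier results of these data known. A few genes that these rules pick are not reported here; the counts of calls include them. The alternatives are given in the closing section.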

Additional observations from a re-analysis of the deposited data

Results flagged for a closer look

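Of 23 sets of 4 to 10 batches, 9 had a highest batch far from the others. The rate of about 1 in 20 that chance gives does not hold for sets with most sums at 0, where 1 batch with any UMIs is flagged by construction. The 9 flagged sets were therefore not compared with chance. In cells of 1 gate these were Oprm1 in the Th gate at 0.68 CPM in batch 34 with the other 3 at 0, Oprl1 in the Th gate at 4.09 CPM in batch 34, Oprl1 in the Gzmbl3+Lpar3 gate at 2.91 CPM in batch 26 and Oprd1 in the Gzmbl3+Lpar3 gate at 1.48 CPM in batch 20 with the other 6 at 0. In closest-gate cells they were Oprl1 in the Trpm8 gate at 43.9 CPM in batch 28-1, Pdyn in the Gzmbl3+Lpar3 gate at 4.23 CPM in batch 35, Oprl1 there at 2.86 CPM in batch 26, Oprd1 there at 1.18 CPM in batch 20 and Oprk1 in the Trpm8 gate at 1.14 CPM in batch 34. Not every flagged set had most sums at 0: Oprl1 had 0 of 4 at 0 in the Th gate and 2 of 10 in the Trpm8 gate. The causes were not tested.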

How the results depend on the processing

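Depth limits Oprd1 and Oprk1, which are near the limit of these libraries, and the Trpm8 and Nmu+Lad1 gates, which rest on few cells per batch. For Oprm1 in the Clmp gate the log2 fold change was 0.43 at a gate level of 10 CPM, 1.61 at 50 CPM, 0.59 with 5 cells per sum and 1.15 in the sign-flip test, none of them called, and 1.71 to 2.41 without each batch, all called. For Oprl1 there it was 1.53 at 50 CPM, 1.60 with 5 cells and 1.17 by closest gate, not called, and 1.66 to 2.14 without each batch. Penk in the Trpm8 gate gave 2.40 in the sign-flip test, not called. Oprl1 in the Trpm8 gate gave 1.89 at 10 CPM, 1.76 with 5 cells and 1.47 in the sign-flip test, not called, and 1.91 to 2.38 without each batch. Pdyn in the Nmu+Lad1 gate gave 2.57 without a batch term and 2.86 in the sign-flip test, which with 3 batches cannot go below p = 0.25, and 3.87 to 4.04 in the 13 fits without 1 batch in which the gate remained. Pdyn in the Gzmbl3+Lpar3 gate gave -2.17 at 50 CPM and -2.27 with 5 cells, not called.

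Of 20 gene and gate contrasts in cells of 1 gate, 2 were called. This became 5 with no filter, 4 with DESeq2, 4 without a batch term, 0 at 10 CPM, 0 at 50 CPM and 0 with 5 cells, and 1 to 3 without each batch. No neighbouring gates were called, against 1 pair with no filter and 1 with DESeq2. By closest gate 6 were called, and 10 with no filter, 3 at 50 CPM, 1 with 5 cells, 2 with thinned cells, and 4 to 8 without each batch. Opioid-system calls in the Clmp gate were 17, and 11 with thinned cells (14 to 17 without each batch). In the Sst+Nppb gate they were 12, and 4 at 10 CPM and 6 with thinned cells (7 to 12). In the Gzmbl3+Lpar3 gate they were 14, and 4 at 10 CPM, 8 at 50 CPM and 2 with 5 cells (9 to 15). In the Ntsr1+Chrna3 gate they were 3, and 0 at 50 CPM, 5 with 5 cells, 1 with 4000 genes per cell and 0 with thinned cells (0 to 3). In the Th gate they were 0, and 4 with no filter, 3 with DESeq2 and 1 without a batch term (0 to 1). Rgs4 in the Sst+Nppb gate turned to 0.24 at 10 CPM. Of the other values for single opioid-system genes, 982 kept direction and call and 199 kept direction without the call. The cause was not tested. Fewer genes passed the filter in some fits: in cells of 1 gate, Oprm1 and Penk alone at 10 CPM and none of the 6 with thinned cells, and by closest gate Penk alone with thinned cells. Of 96 shares of cells with a UMI, 29 moved with a limit of 2 UMIs and 58 with thinned cells.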
